A study of Spinacia oleracea with 6 samples.

Results

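Nitrate reductase (NIA, gene number 110786500) and ferredoxin-dependent glutamate synthase (Fd-GOGAT, gene number 110777056) catalyse the first and the last step by which a green leaf turns nitrate into glutamate. These 2 genes, chosen by their gene numbers, are described here out of 32450 genes measured by RNA sequencing in spinach, Spinacia oleracea. In an illumination incubator, the heat group had days at 35 °C with nights at 25 °C, and the control group had days at 20 °C with nights at 15 °C, over a treatment of 4 days. Each regime had 3 libraries of total RNA. The stated aim was to find genes that respond to the warmer regime and may relate to resilience. The sources used here do not name the tissue, the cultivar, the hour of harvest or the nitrate supply. Nitrate reductase transcript is known to vary over the day in plants, and whether the regimes or replicates were harvested at matching hours could not be checked. The sources also do not say whether each library had its own plant, so p-values measure the spread between these libraries, which may be technical. In bulk RNA, fewer cells of a type and less transcript per cell cannot be told apart.

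Nitrate reductase works in the cytosol and reduces nitrate to nitrite with electrons from NADH or NADPH. Nitrite then enters the plastid, where nitrite reductase reduces it to ammonium with electrons from ferredoxin. Glutamine synthetase fixes the ammonium into glutamine, and Fd-GOGAT, again drawing on reduced ferredoxin, passes the amide nitrogen of glutamine to 2-oxoglutarate to give glutamate. In leaves Fd-GOGAT also takes part in recovering the ammonium released by photorespiration. Spinach leaves are known for storing nitrate, and spinach nitrate reductase is a classical subject of work on control of the enzyme by light and phosphorylation.

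Libraries held 48.0, 44.0 and 42.3 M counts in heat replicates 1 to 3, and 53.5, 56.8 and 48.4 M counts in control replicates 1 to 3. Levels are given as FPKM, the authors' values per kilobase of gene and per total counted reads, where genes are set beside each other. Where the same gene is compared between regimes, levels are in CPM on the TMM scale (reads of a gene over the library's total, with a factor that corrects for composition). Across all 20145 tested genes, 13.6% were called lower and 11.6% higher in heat by edgeR's quasi-likelihood test at a Benjamini-Hochberg adjusted p below 0.05. The direction split moved with the scaling: 46.1% of the calls were higher as reported and 81.0% under library size alone, which shifted the median log2 fold change by 0.46.

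NIA was among the most abundant transcripts in control plants, and its mean in CPM fell to 5.21% of the control mean in heat. It had 22.2, 20.3 and 80.5 FPKM in heat replicates 1 to 3, against 525, 758 and 390 FPKM in control replicates 1 to 3. Every heat library lay below every control library, and heat replicate 3 stood well above the other heat libraries. As a place in the order of all genes by FPKM, NIA stood at 5168, 5456 and 1420 in heat replicates 1 to 3, against 177, 116 and 226 in control replicates 1 to 3. Its place was thus much lower in each heat library than in any control library.

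The counts behind these values were large. NIA was covered by 3534, 2977 and 11315 reads in heat replicates 1 to 3, against 93365, 142917 and 62603 reads in control replicates 1 to 3, over a gene length of 3322 bp recovered from the relation of FPKM to count. Counting error alone was at most 1.83% in any library, small beside the gap between heat replicate 3 and the other heat libraries. On the CPM scale NIA had 63.6, 60.7 and 213 CPM in heat replicates 1 to 3, against 1906, 2906 and 1663 CPM in control replicates 1 to 3. The lowest control library still had 7.81 times the CPM of the highest heat library.

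The mean of NIA was 112 ± 87.1 CPM in heat and 2158 ± 659 CPM in control (SD, n = 3 each), a level 19.2-fold lower in heat. The log2 fold change was -4.26 (SE 0.60, 95% interval -5.67 to -2.86, adjusted p = 0.00363, edgeR's quasi-likelihood test). On the authors' FPKM, which carry no correction for composition, the mean was 41.0 ± 34.2 FPKM in heat and 557 ± 186 FPKM in control, 13.6-fold lower in heat. Without heat replicate 3 the log2 fold change was -5.12 (adjusted p = 0.00171, edgeR's quasi-likelihood test). Leaving out any other single library gave -4.43 to -3.96. How deep the fall appeared thus depended on the libraries included, most on heat replicate 3, but its direction and its call did not.

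Fd-GOGAT, the plastid enzyme that releases glutamate at the end of the pathway, fell in heat as well, with a smaller fitted fold change. It had 133, 86.3 and 122 FPKM in heat replicates 1 to 3, against 343, 400 and 248 FPKM in control replicates 1 to 3. All heat libraries were again below all control libraries. The heat libraries lay closer together than for NIA, with replicate 2 the lowest. In the order of genes by FPKM it stood at 832, 1369 and 880 in heat replicates 1 to 3, against 259, 225 and 369 in control replicates 1 to 3. The gene length was 5572 bp, and the reads numbered 35591, 21169 and 28825 in heat replicates 1 to 3, against 102241, 126663 and 66801 in control replicates 1 to 3.

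On the CPM scale Fd-GOGAT had 641, 431 and 542 CPM in heat replicates 1 to 3, against 2088, 2575 and 1774 CPM in control replicates 1 to 3. Its mean was 538 ± 105 CPM in heat and 2146 ± 404 CPM in control (SD, n = 3 each), 3.99-fold lower in heat. The log2 fold change was -2.0 (SE 0.24, 95% interval -2.57 to -1.42, adjusted p = 0.00223, edgeR's quasi-likelihood test). The lowest control library had 2.77 times the CPM of the highest heat library. On the authors' FPKM the mean was 114 ± 24.5 FPKM in heat and 330 ± 77.0 FPKM in control, 2.90-fold lower in heat.

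**Figure D1:**
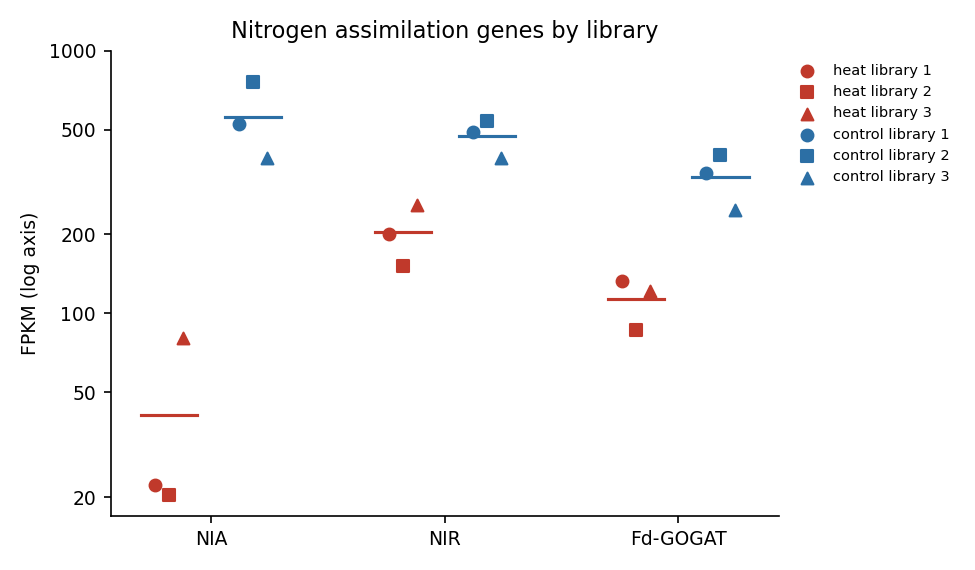
FPKM (log axis) of NIA, NIR and Fd-GOGAT in each of the 3 heat and 3 control libraries, with a bar at the group mean and a marker shape for each replicate number. All heat points lie below all control points of the same gene, and heat replicate 3, at 80.5 FPKM, stands above the other heat libraries for NIA.

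Nitrite reductase (NIR, LOC110805491), the plastid enzyme between the 2 genes, also fell in heat. NIR had 200, 152 and 259 FPKM in heat replicates 1 to 3, against 492, 541 and 391 FPKM in control replicates 1 to 3, with no overlap between the groups. Its mean was 388 ± 79.4 CPM in heat and 1255 ± 142 CPM in control, with a log2 fold change of -1.69 (SE 0.22, adjusted p = 0.00262, edgeR's quasi-likelihood test). A list of nitrogen assimilation genes drawn by name from the reference gene table (nitrate and ammonium transport, nitrate and nitrite reduction, glutamine and glutamate synthesis, cofactors) matched 3 genes, NIA, NIR and Fd-GOGAT. All 3 were called lower, against 13.6% of tested genes and 58.4% of the 125 tested genes with a reference name. All 3 lay lower without overlap, as did 22.3% of tested genes. The median log2 fold change of the list was -2.0, which is the value of Fd-GOGAT itself, against 0.01 over all tested genes. Since these genes were chosen with results known, the counts describe them only. Glutamine synthetase, the transporters and any further copies of these enzymes carry no such name in the table and were not analysed here.

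The share of genes called lower was also high among abundant genes. Of 99 tested genes with a mean over all 6 libraries of at least 1000 CPM, 61 (61.6%) were called lower and 8 higher in heat, and their median log2 fold change was -1.42. Of these 99, 32, Fd-GOGAT included, had a log2 fold change at or below its own. For NIA the number was 5 of the 99, itself included. Both genes entered this set through their control level: means were 2158 CPM for NIA and 2146 CPM for Fd-GOGAT in control. In heat they were 112 and 538 CPM, below the limit. Such a filter favours genes that are high in 1 regime, so these places are description only. Among all tested genes 0.531% had a lower log2 fold change than NIA, and 5.09% a lower one than Fd-GOGAT. Of 125 tested genes with a reference name, 73 (58.4%) were called lower.

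Within each library the level of NIA was also set against that of the later steps, per length. NIA over Fd-GOGAT, as a ratio of FPKM, was 0.167, 0.236 and 0.658 in heat replicates 1 to 3, against 1.53, 1.89 and 1.57 in control replicates 1 to 3. Per length, NIA was therefore the more abundant of the pair in every control library and the less abundant in every heat library. The mean log2 ratio was -1.76 ± 1.03 in heat and 0.73 ± 0.17 in control (SD, n = 3 each), a difference of -2.49 (exact two-sided permutation p = 0.1, the smallest that 3 libraries against 3 allow). Without heat replicate 3 the difference was -3.06. Scaling between libraries cancels in such a ratio, so composition does not enter it.

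The ratio of NIA to NIR, the next enzyme, gave the same order. It was 0.111, 0.134 and 0.311 in heat replicates 1 to 3, against 1.07, 1.40 and 0.995 in control replicates 1 to 3. Control libraries thus held 0.995 to 1.40 times as much NIA as NIR, while the highest heat library held 0.311 times as much. Fd-GOGAT over NIR was 0.665, 0.569 and 0.472 in heat replicates 1 to 3, against 0.696, 0.740 and 0.633 in control replicates 1 to 3. For this pair of plastid enzymes the groups overlapped, and the difference in log2 ratio was -0.29, not tested. Only the ratio of NIA to Fd-GOGAT was tested.

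**Figure D2:**
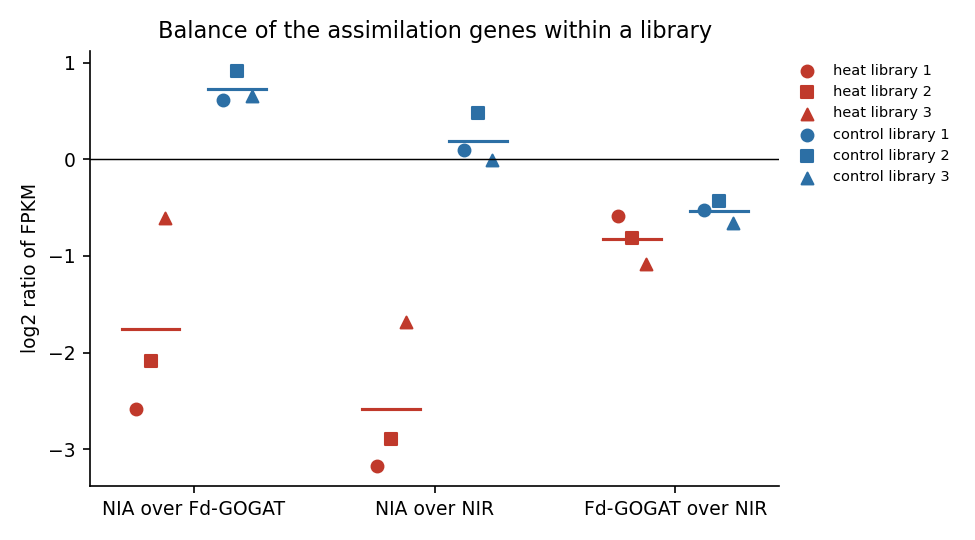
Log2 ratio of FPKM between the named genes within each library, for 3 heat and 3 control libraries, with a bar at the group mean. The ratios that hold NIA lie lower in all heat libraries than in any control library, while Fd-GOGAT over NIR overlaps between the groups.

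Replicate libraries differed more for NIA in heat than for most genes of like abundance. The SD of log2 CPM over the heat libraries was 1.02 for NIA, and 29 of 2607 tested genes within 2-fold of its heat level (1.11%) had a larger one, with a median of 0.22. In control the SD of NIA was 0.42, and 26.9% of 93 genes of like level exceeded it. Fd-GOGAT had an SD of 0.29 in heat and 0.27 in control, exceeded by 41.2% of 371 and 49.5% of 93 genes of like level. Its replicates therefore agreed about as well as those of comparable genes.

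**Figure D3:**
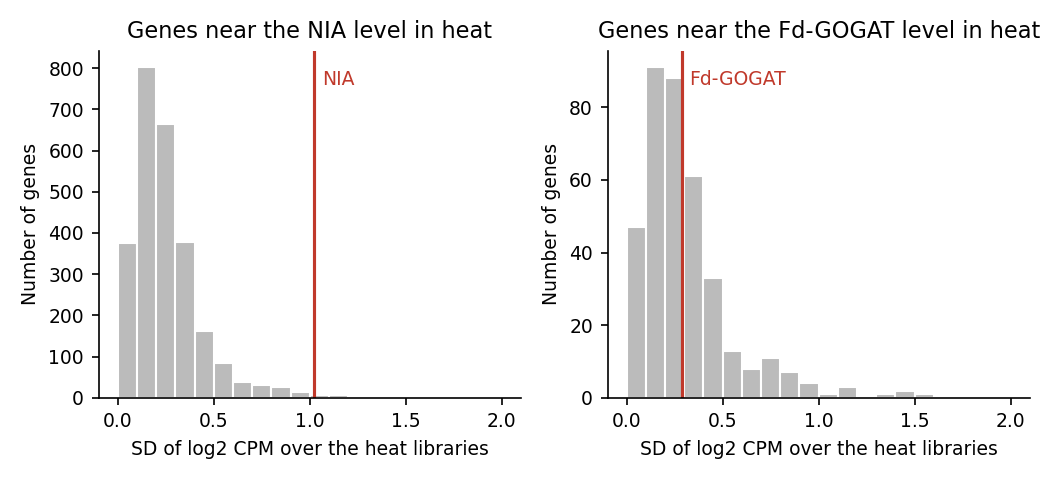
Number of tested genes (y axis) by the SD of log2 CPM over the 3 heat libraries (x axis), for genes within 2-fold of the heat level of NIA (left) and of Fd-GOGAT (right). The vertical line marks the named gene, at 1.02 in the tail for NIA and at 0.29 within the bulk for Fd-GOGAT.

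The order of the libraries within a regime can be read beside these spreads. In control, replicate 2 was highest and replicate 3 lowest for NIA, NIR and Fd-GOGAT alike. In heat, replicate 3 was highest for NIA and NIR, at 213 and 466 CPM, whereas replicate 1 was highest for Fd-GOGAT, at 641 CPM, and replicate 2 was lowest for all 3 genes. Of the other 1934 genes called at least 2-fold lower in heat, 50.6% had their highest heat level in replicate 3, 33.1% in replicate 2 and 16.3% in replicate 1. The part of this library-wide pattern in the NIA value was not tested.

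Genes tied to the pathway through ferredoxin, photorespiration or reducing power were looked at next. Of 7 such genes matched by name and tested, 5 were called lower (13.6% of all tested genes were), 1 was called higher (11.6% were), and 1 did not pass. The list was drawn from genes with a reference name, and of 125 such tested genes 73 (58.4%) were called lower. The count of 5 is therefore not read as particular to these genes. Their median log2 fold change was -1.14. PETF (LOC110805667), the ferredoxin that donates electrons to nitrite reductase and Fd-GOGAT, had 289, 273 and 377 FPKM in heat replicates 1 to 3, against 794, 537 and 429 FPKM in control replicates 1 to 3. The regimes did not overlap, and its log2 fold change was -1.36 (SE 0.22, adjusted p = 0.00571, edgeR's quasi-likelihood test). FNR (LOC110801208), ferredoxin-NADP reductase, which competes for reduced ferredoxin to make NADPH, averaged 520 ± 43.5 CPM in heat and 1146 ± 19.3 CPM in control (log2 fold change -1.14, adjusted p = 0.0038, edgeR's quasi-likelihood test). Both electron carriers thus fell by less than NIA or Fd-GOGAT in the fitted values, a difference that was not tested.

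GOX (LOC110805661), glycolate oxidase of photorespiration, the pathway that releases ammonium in leaves, stayed one of the most abundant transcripts. It ranked between 23 and 37 by FPKM in heat libraries and between 14 and 22 in control libraries, while its CPM had a log2 fold change of -2.08 (SE 0.26, adjusted p = 0.00229, edgeR's quasi-likelihood test), close to that of Fd-GOGAT. NADP-MDH (LOC110802517), the plastid malate dehydrogenase that exports reducing power, averaged 144 ± 22.4 CPM in heat and 297 ± 28.9 CPM in control (log2 fold change -1.04, adjusted p = 0.00657, edgeR's quasi-likelihood test). DiT1 (LOC110802505), which the table names as DiT1 or DIT2, names used for plastid dicarboxylate carriers, was singled out after its values were seen. It had 9.25, 7.66 and 11.5 CPM in heat replicates 1 to 3, against 41.2, 37.5 and 30.4 CPM in control replicates 1 to 3, with a log2 fold change of -1.94 (SE 0.21, adjusted p = 0.00137, edgeR's quasi-likelihood test).

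Ferredoxin-thioredoxin reductase, another plastid enzyme fed by ferredoxin, had chains in both directions. FTRC (LOC110802350), its catalytic chain, fell to 23.7 ± 2.04 CPM in heat, against 77.9 ± 12.3 CPM in control (log2 fold change -1.72, adjusted p = 0.000964, edgeR's quasi-likelihood test). B1 (LOC110798481), which carries the same catalytic chain names in the table, averaged 8.58 ± 2.88 CPM in heat and 13.6 ± 1.33 CPM in control and did not pass (log2 fold change -0.67, adjusted p = 0.119, edgeR's quasi-likelihood test). FTRV (LOC110781961), the variable chain, rose to 101 ± 11.9 CPM in heat, against 66.7 ± 0.974 CPM in control (log2 fold change 0.60, adjusted p = 0.0216, edgeR's quasi-likelihood test). The FTRV call ended without heat replicate 1 or without control replicate 1, 2 or 3 (adjusted p from 0.0511 to 0.0995).

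**Figure D4:**
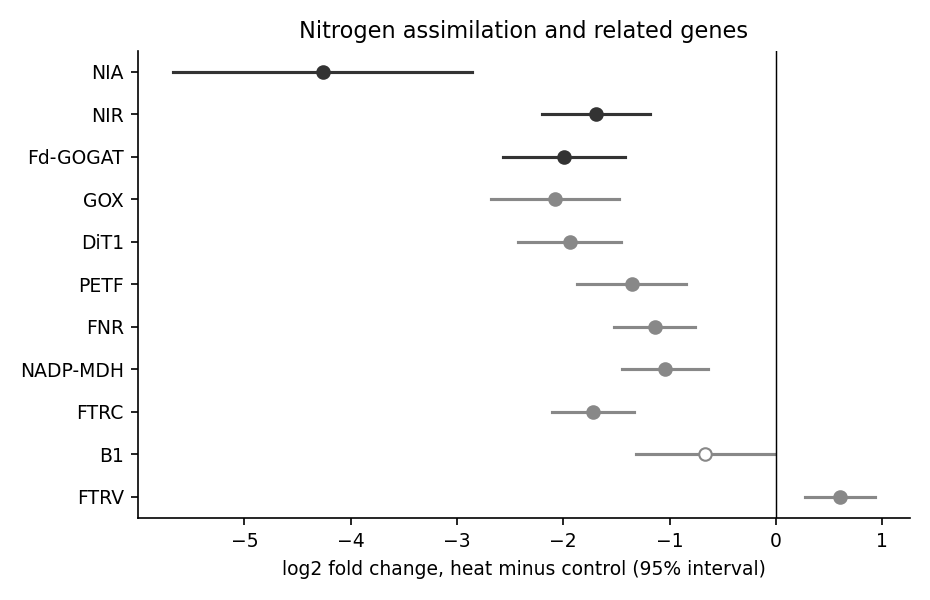
Log2 fold change, heat minus control, with its 95% interval from edgeR. Nitrogen assimilation genes are dark, and genes of ferredoxin, photorespiration and reducing power are grey. DiT1, added after its values were seen, is also grey. Filled points passed an adjusted p of 0.05, and NIA, at -4.26, lies furthest from 0.

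The genes most like each of the pair over the 6 libraries were found by Pearson's r of log2(CPM + 0.5) among tested genes with a mean of at least 10 CPM. Since both regimes enter, r mostly measures a shared difference between heat and control, and it is given as a description. For NIA the closest of 10768 genes were LOC110779285, LOC110795734 and LOC110787673, at r from 0.9981 to 0.9983, none of which has a name in the reference table. LOC110779285 had 70.7, 73.1 and 115 CPM in heat replicates 1 to 3, against 256, 270 and 229 CPM in control replicates 1 to 3. Like NIA, it was highest in replicate 3 within heat and in replicate 2 within control. It was picked for likeness to NIA over these same libraries, so the shared order follows in part from that choice. The log2 fold change of LOC110779285 was -1.55.

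Among 118 other genes with a reference name, PEAMT (r = 0.993), NIR (r = 0.990) and DiT1 (r = 0.984) came closest to NIA. PEAMT (LOC110779155), which methylates phosphoethanolamine in the synthesis of choline and glycine betaine, had 18.2, 20.6 and 63.2 CPM in heat replicates 1 to 3, against 308, 579 and 475 CPM in control replicates 1 to 3. Its highest heat library was 3.47 times its lowest, and that of NIA 3.51 times, in both cases replicate 3. PEAMT too was picked for likeness to NIA over these libraries, so this comparison is description only. For Fd-GOGAT the closest genes were LOC110801389, fad6 and LOC110774737 (r from 0.9973 to 0.9976). Of those with a reference name, fad6 (LOC110799552), POX1 (LOC110800895) and RA (LOC110775180) were nearest, at r of 0.997, 0.992 and 0.990. Here fad6 is a plastid fatty acid desaturase and RA is Rubisco activase.

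These companions of Fd-GOGAT covered a wide range of fold changes. RA averaged 345 ± 50.1 CPM in heat and 4063 ± 542 CPM in control (log2 fold change -3.56), fad6 had a log2 fold change of -1.0 and POX1 one of -0.78. NIA and Fd-GOGAT had an r of 0.958 with each other. In the order of likeness NIA was 483rd of 10768 genes for Fd-GOGAT, and Fd-GOGAT was 541st for NIA. NIR was closer to both, at place 51 for NIA (r = 0.990) and place 57 for Fd-GOGAT (r = 0.987).

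The nearest tested genes on the chromosome did not pass the test, for NIA or for Fd-GOGAT. They were taken from the order of genes in the BTI_SOV_V1 table, an assembly that may not be the one the authors used. Some are not adjacent, since untested genes lie between: 1 before LOC110786587 on one side of NIA, and 4 and 3 before those nearest to Fd-GOGAT. Near NIA, LOC110786587 averaged 71.1 ± 17.3 CPM in heat and 57.6 ± 1.21 CPM in control, and LOC110797926 averaged 23.8 ± 2.23 CPM in heat and 23.0 ± 3.34 CPM in control. Neither was called (log2 fold changes 0.30 and 0.04, adjusted p = 0.299 and adjusted p = 0.864, edgeR's quasi-likelihood test). Near Fd-GOGAT, LOC110777802, a noncoding RNA, and LOC110779042 had log2 fold changes of 0.59 and -0.72 and were not called either (adjusted p = 0.0926 and adjusted p = 0.203, edgeR's quasi-likelihood test). The table also places a noncoding RNA, LOC130466342, across part of Fd-GOGAT. It has no values of its own here, and the sources used here do not say whether the authors' counting used strand, so reads from it could be included in the Fd-GOGAT counts.

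The direction and the call of NIA, NIR and Fd-GOGAT held under every alternative run, including the removal of each library in turn. Over these 13 alternatives the log2 fold change of NIA ranged from -5.12 to -3.77 and that of Fd-GOGAT from -2.14 to -1.52. Under library size alone the values were -3.77 for NIA, -1.22 for NIR and -1.54 for Fd-GOGAT, each still lower in heat.

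**Figure D5:**
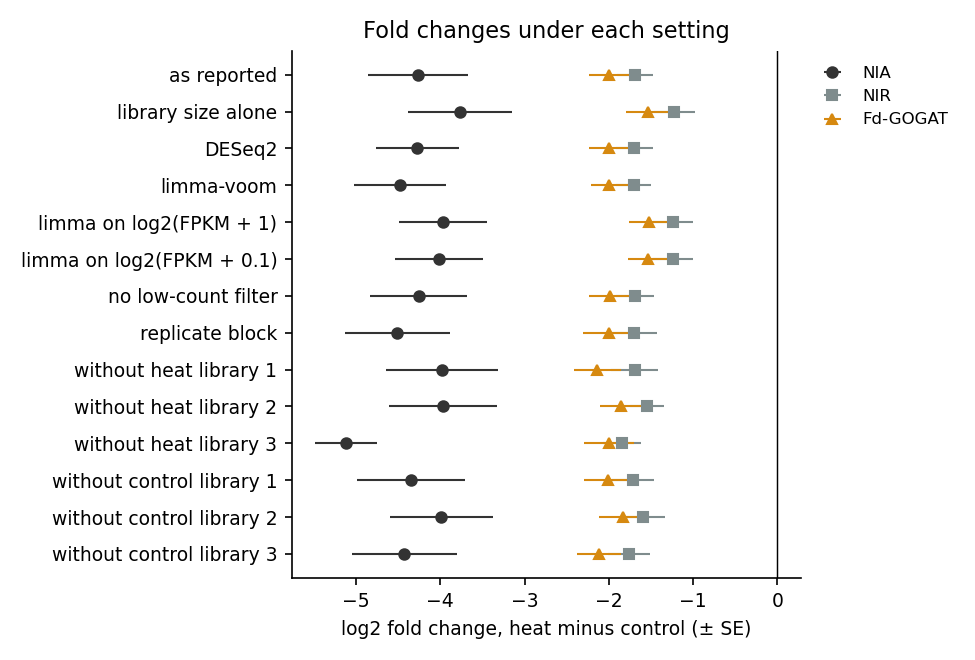
Log2 fold change, heat minus control, with its SE (x axis) for NIA, NIR and Fd-GOGAT under the reported fit and 13 alternatives (y axis). All values lie below 0, and NIA reaches its lowest value, -5.12, without heat library 3.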

How the data were processed

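The read counts per gene were deposited as whole numbers without normalization, per the values in the table. The FPKM values were deposited by the authors, and for 20305 of 20305 genes checked they equalled the count over a fixed gene length and the library total, within a relative tolerance of 1e-06. Per the submitters' processing notes, the tools were HISAT2 2.0.4, HTSeq 0.9.1 and DESeq 1.18.0, with no role stated. The sources used here name no genome build, strand setting or handling of reads that align to several places, so reads of near-identical copies could have been split or dropped. A file of added gene models was not used. Of 30732 gene numbers, 25304 (82.3%) matched the BTI_SOV_V1 gene table, the source of names.

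Counts were tested with edgeR 4.0.16 in R 4.3.3 (TMM, its own low-count filter, quasi-likelihood test, group as the only term, all 6 libraries, two-sided). SE is the log2 fold change over the root of the F statistic. Alternatives used limma 3.58.1 and DESeq2 1.42.0. On simulated counts with 100 genes changed 4-fold and 100 changed 16-fold among 19852 genes tested, the edgeR fit recovered 94 and 100. Library pairs within a group differed by at least 84.6 times the chi-square that read sampling allows per degree of freedom, so none was treated as a library deposited again. That does not show separate plants. Replicate numbers were not used as pairs in the reported fit, and whether they pair the samples is not known. Named genes were the pair, their pathway list, the list of genes tied to it (ferredoxin, photorespiration, reducing power), and the 3 genes most like each by Pearson correlation, over all and over named genes. A comparison of protein and promoter sequences was planned and not run, as sequences were not used here. The members and lists were chosen with earlier results of these data known. Counting errors quoted cover sampling of reads only.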

Additional observations from a re-analysis of the deposited data

How the results depend on the processing

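NIA, NIR and Fd-GOGAT kept their direction and their call under all 13 alternatives, and 5 of the 7 genes of ferredoxin, photorespiration and reducing power were called lower under each. The count of calls over all genes moved more. Either direction together, 5074 genes were called as reported, 7759 under library size alone, 8012 on log2(FPKM + 1) and 8119 on log2(FPKM + 0.1). Genes higher in heat numbered 2339 as reported and 6288, 6453 and 6543 under these settings, and genes lower in heat 2735 as reported and 1471, 1559 and 1576. Leaving out a library gave 2291 to 4355 calls, 864 to 1924 higher and 1427 to 2464 lower, with the lowest counts without control replicate 2 (2291) and without heat replicate 1 (2651). The number of those 7 genes called higher was 0 or 1 when a library was left out.

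Deviations of same-numbered libraries correlated at -0.126, -0.163 and -0.324, and in no case did a heat library correlate best with its own number. These deviations are taken from means of 3 libraries and constrain each other. They cannot show whether the numbers pair the samples. With the number as a replicate block, 2628 genes were called (1048 higher, 1580 lower), 0 of the 7 were called higher, and the log2 fold changes were -4.51 for NIA and -2.0 for Fd-GOGAT (adjusted p = 0.0138 and adjusted p = 0.0182, edgeR's quasi-likelihood test). The log2 ratio of NIA to Fd-GOGAT differed by -3.06 to -2.07 when a library was left out. With 3 libraries a group, its exact test cannot pass 0.05. Depth set little limit on these abundant genes, whose precision rests on the spread between libraries, widest for NIA in heat.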
